A study of Mus musculus with 6 samples.

Results

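The interferon-induced antiviral effectors described here are Ifit1, Ifit2, Ifit3, Rsad2, Oas1a, Isg20, Rtp4, Ifi44, Ifi27l2a and Slfn1. They were taken by gene symbol from a deposited table of 4162 genes, and all 10 had a row. All 10 passed the filter on low counts, 5 of them (Ifit3, Rsad2, Oas1a, Rtp4 and Ifi44) only with the counts of UTX TCD libraries. Naive CD4+ T cells were isolated magnetically from mouse spleen and stimulated for 48 h with anti-CD3 on the plate and anti-CD28 in solution. There were 3 libraries of WT mice on the B6 background and 3 of UTX TCD mice, which lack the histone H3K27 demethylase UTX (gene Kdm6a) in T cells only. The series' design text gives 3 mice per genotype. The sources used here do not name the driver of the deletion, the deleted exons or the age of the mice.

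Type I interferons bind a receptor of the chains Ifnar1 and Ifnar2, whose kinases Jak1 and Tyk2 activate transcription factors, among them Stat2. With Irf9 these form a complex that binds the interferon-stimulated response element (ISRE) in the promoters of induced genes. Interferon gamma signals through Ifngr1 and Ifngr2 to genes that carry the gamma-activated site (GAS). The induced effectors bind viral RNA, make modified nucleotides, degrade RNA or act by ways less well known. T cells both respond to these cytokines and make interferon gamma.

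Promoter sequences were read from RefSeq (GRCm38.p6) to see which of the 10 genes carry the response elements near their start. A window of 250 bases before to 50 after the start was found for 8 genes, with 11 starts in all. Rtp4 and Ifi27l2a were not matched. The ISRE core was searched on both strands as GAAA, any 2 bases and GAAA, and the GAS as TTC, any 3 bases and GAA, which reads the same on both strands. The 2 motifs do not overlap in any window described here. The ISRE core was found in 4 of the 11 windows, those of Ifit1, Ifit3, Rsad2 and Oas1a. Among all 32851 promoter windows of this length, 3.44% held it, and among those of genes called higher in UTX TCD cells 4.11% did. The stretches that hold it follow, 5′ to 3′ on the strand of the gene, with the matches in capitals.
Ifit1, chr19:34640755-34640843, plus strand: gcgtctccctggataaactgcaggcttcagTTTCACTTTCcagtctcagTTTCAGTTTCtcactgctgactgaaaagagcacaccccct
Ifit3, chr19:34583343-34583446, plus strand: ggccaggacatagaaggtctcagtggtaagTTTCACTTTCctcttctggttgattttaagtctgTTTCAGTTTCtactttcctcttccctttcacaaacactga
Rsad2, chr12:26456533-26456602, minus strand: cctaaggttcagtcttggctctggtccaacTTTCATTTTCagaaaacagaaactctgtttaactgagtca
Oas1a, chr5:120907526-120907575, minus strand: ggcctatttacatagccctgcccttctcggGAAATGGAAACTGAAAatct
Ifit1 and Ifit3 each held 2 separate copies, with identical letters in both genes. Counted from the start, the matches began at -104 and -85 in Ifit1 and at -156 and -122 in Ifit3. Rsad2 held 1 copy. The 2 matches of Oas1a overlap each other and lie within the last 20 bases before the start.

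The GAS letters were found in 3 of the 11 windows, 1 each of Ifit2, Oas1a and Isg20, against 8.30% of all promoter windows. Among windows of genes called higher in UTX TCD cells 7.36% held them, and among those of genes called lower 8.18% did. The matches began at -241 in Ifit2, -98 in Oas1a and -73 in Isg20. The Isg20 stretch is shown because Isg20 was the only one of the 10 genes that was lower in UTX TCD cells, with the GAS match in capitals.
Isg20, chr7:78913321-78913389, plus strand: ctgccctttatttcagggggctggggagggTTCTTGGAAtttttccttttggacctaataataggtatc
The windows of Ifi44 and Slfn1 held neither set of letters, which says only that these letters are not in these 300 bases.

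**Figure D1:**
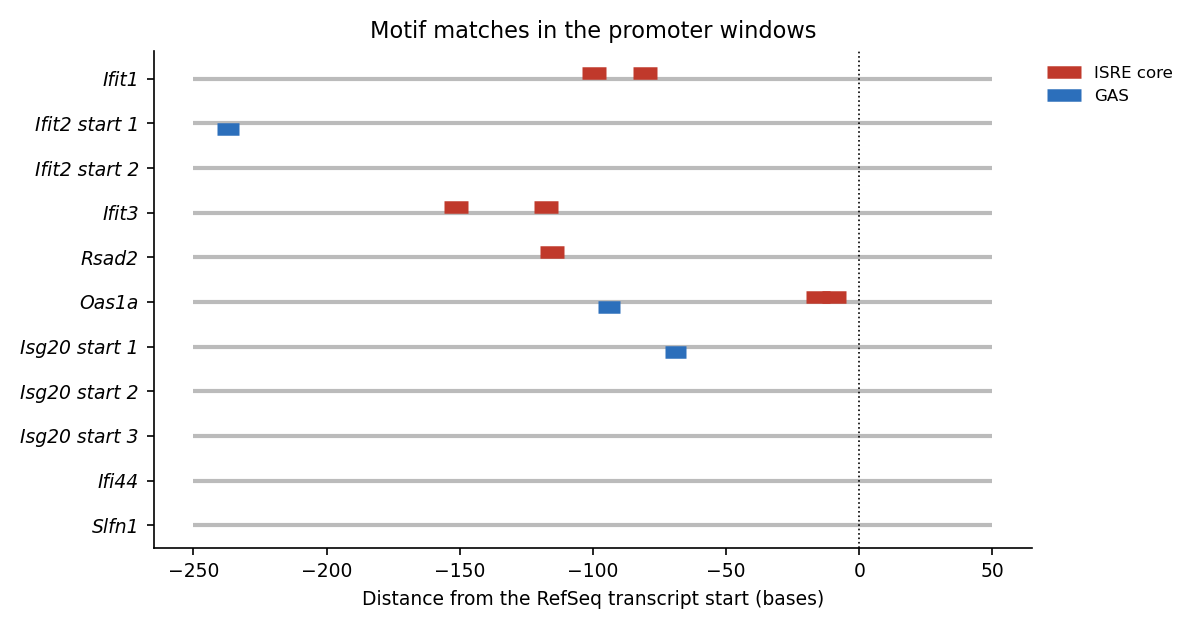
Motif matches in the promoter windows, with the distance from the RefSeq transcript start in bases on the x axis and 1 row for each of the 11 starts. Red blocks are ISRE core matches and blue blocks GAS matches, grey lines mark the windows, and the ISRE matches lie in 4 rows, those of Ifit1, Ifit3, Rsad2 and Oas1a.

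Column totals ran from 8363326 to 10288306 counts over the listed genes. Levels are given in CPM, the counts brought to a common column total with TMM scaling, always in the order of replicates 1, 2 and 3. A positive log2 fold change means higher in UTX TCD cells, and ± after it is the standard error. The table holds part of the transcriptome, and its fold changes are nearly empty around 0, as a selection on the genotype difference leaves them: 20 of 4118 tested genes had a log2 fold change within 0.1 of 0, against 1019 between -0.4 and -0.2. Kdm6a fell from 283 ± 2.96 to 191 ± 14.4 CPM (SD, n = 3 in each group). Biological variation between libraries (coefficient of variation from edgeR) came to 8.01% in WT and 22.3% in UTX TCD cells. UTX TCD replicate 2 stood apart from both others of its genotype, with a chi-square per degree of freedom of 87.7 and 82.5 against them and 19.9 between them.

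Of the 10 effectors, 8 rose in UTX TCD cells, Isg20 fell and Oas1a did not pass the test (edgeR quasi-likelihood test, adjusted p under 0.05). In the table, 68.1% of tested genes were called, 41.1% as higher and 27.0% as lower. The groups did not overlap for 9 effectors, 8 higher and 1 lower, where this held for 41.8% and 44.0% of tested genes. The filter asks for 1.08 CPM in 3 libraries. Ifit1, Ifit2, Isg20, Ifi27l2a and Slfn1 met it in WT alone, and of these 4 were called higher and 1 lower. Of the 5 that met it only with UTX TCD libraries, where they were high, 4 were called higher and Oas1a was not called; these had to differ to be tested, so that the counts over the 10 genes are a description. The median log2 fold change of the 10 genes was 2.53, and that of all tested genes was -0.15. Medians over the 10 genes, here and below, include those 5 genes and are a description too. Ifit1, Ifit2, Isg20, Ifi27l2a and Slfn1, which met the filter in WT alone, had 2.19, 0.82, -1.16, 1.97 and 1.92. With TMM scaling 60.4% of all calls were higher, with upper-quartile scaling 70.6%, and 45.8% when the near-empty zone of the fold changes was shifted to 0 (gap-centred scaling). None of these shares describes the transcriptome, since the genes are a selection.

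The size of the rise differed between the UTX TCD libraries. The 10 genes together held 0.0318% to 0.036% of the counts of WT libraries. They held 0.0614% in UTX TCD replicate 1, 0.2% in replicate 2 and 0.0719% in replicate 3. In replicate 2 the median effector stood at 14.5 times the WT mean, in replicates 1 and 3 at 2.17 and 2.50 times. These medians include the 5 genes that met the filter only with UTX TCD libraries. The 5 that met it in WT alone stood at 0.807 to 9.67 times the WT mean in replicate 2. Without replicate 2, the same 8 genes were called higher and Isg20 lower, where 38.8% and 35.3% of tested genes were, and the median log2 fold change of the 10 was 1.17. Without WT replicate 1, 2 and 3, 4, 3 and 5 effectors were called higher and none lower. The whole table lost calls in these fits too: 19.6%, 17.6% and 28.8% of tested genes were then higher, and 9.69%, 8.47% and 13.1% lower. The calls of Ifit2, Ifit3 and Slfn1 held with any 1 library left out. When p-values were adjusted for all 22028 annotated protein-coding genes, the rise of Ifit2 and Slfn1 still passed and that of the other effectors did not, nor did the fall of Isg20. No direction of an effector reversed in any alternative tried.

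**Figure D2:**
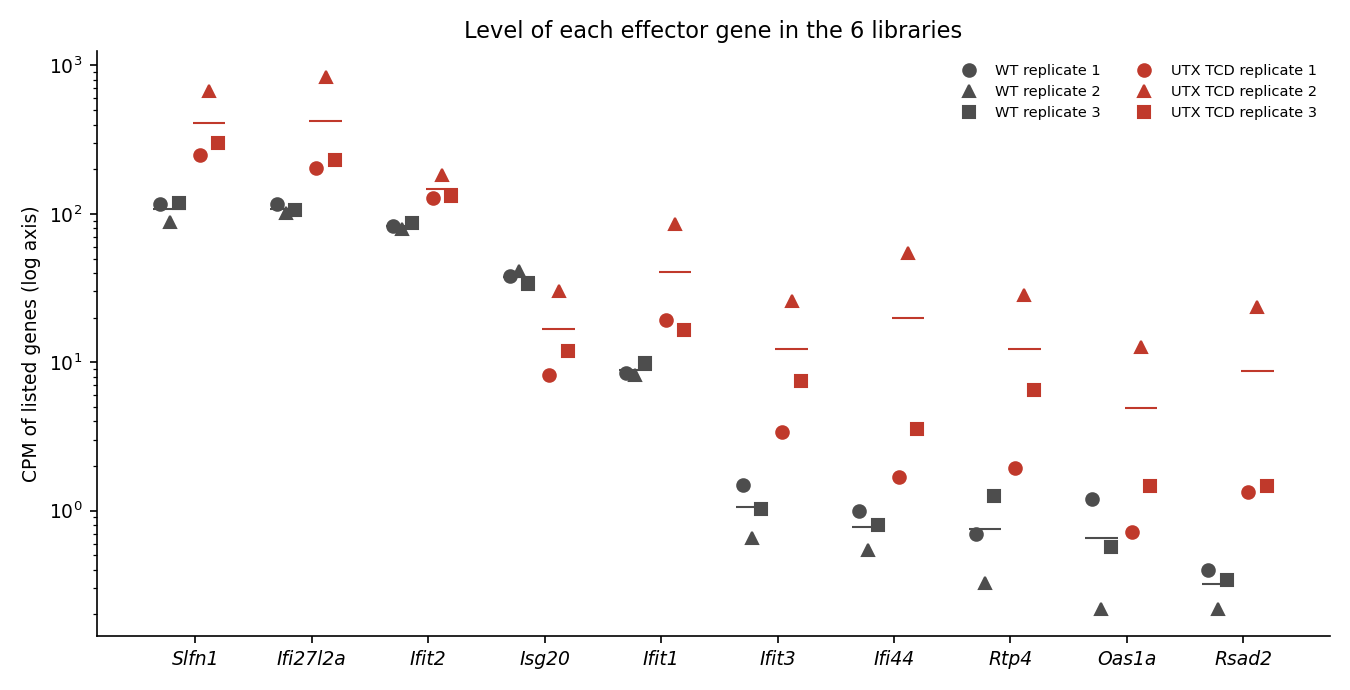
Level of each effector in CPM on a log axis, with 1 symbol per library (grey WT, red UTX TCD, shape by replicate) and a line at the mean of each group. UTX TCD replicate 2, the red triangle, is the highest of the 6 libraries for 9 genes, and Isg20 is the gene whose UTX TCD libraries all lie below WT.

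The Ifit genes encode tetratricopeptide repeat proteins that bind RNA and hinder the translation of viral messages. They lie in a cluster on chromosome 19. Ifit1 (ENSMUSG00000034459, chr19:34640871-34650009, GRCm38) had 8.52, 8.24 and 9.88 CPM in WT against 19.2, 85.9 and 16.5 CPM in UTX TCD cells. Every UTX TCD library was above every WT library, with replicates 1, 2 and 3 at 2.16, 9.67 and 1.86 times the WT mean. The log2 fold change was 2.19 ± 0.63 (edgeR adjusted p = 0.020), and 1.00 without UTX TCD replicate 2. Its call was lost without WT replicate 1 (2.16), 2 (2.13) or 3 (2.27).

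Ifit2 (ENSMUSG00000045932, chr19:34550694-34576419) had the narrowest spread of the 10 genes among UTX TCD libraries. It had 83.2, 79.0 and 86.7 CPM in WT against 128, 182 and 131 CPM in UTX TCD cells. The groups did not overlap, and the highest UTX TCD library was 1.42 times the lowest. Ifit2 rose by 0.82 ± 0.15 on the log2 scale (edgeR adjusted p = 0.0048), and by 0.63 without UTX TCD replicate 2.

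Ifit3 (ENSMUSG00000074896, chr19:34583531-34588731) is another gene of this cluster. It had 1.49, 0.651 and 1.02 CPM in WT, from 15, 6 and 9 counts, against 3.37, 25.7 and 7.50 CPM in UTX TCD cells. All UTX TCD libraries were above WT, and replicates 1 and 3 differed from each other 2.23-fold. Ifit3 rose by 3.51 ± 0.79 on the log2 scale (edgeR adjusted p = 0.0099), and by 2.34 without UTX TCD replicate 2. Its transcript is 97.8% identical to that of Ifit3b over 1700 bases, so that reads may have been split between the pair or lost. Ifit3b itself had 5, 0 and 3 counts in WT and 3, 58 and 12 in UTX TCD replicates 1, 2 and 3, and was below the low-count filter.

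Rsad2, Oas1a and Isg20 encode enzymes that act on nucleotides or RNA. Rsad2 (viperin, ENSMUSG00000020641, chr12:26442746-26456452) makes a chain-terminating nucleotide from CTP. It had 4, 2 and 3 counts in the WT libraries, a sum of 9 with an exact Poisson 95% interval of 4.12 to 17.1 for counting error. No WT library reached the filter level, so that Rsad2 was tested only because of its UTX TCD counts. Its levels were 0.396, 0.217 and 0.341 CPM in WT, against 1.33, 23.6 and 1.46 CPM in UTX TCD replicates 1, 2 and 3. UTX TCD replicates 1 and 3 had 11 and 14 counts and replicate 2 had 223, which is 89.9% of the group's counts. The groups did not overlap, and the log2 fold change was 4.73 ± 1.35 (edgeR adjusted p = 0.021), falling to 2.07 without UTX TCD replicate 2. The call was lost without WT replicate 1 (4.92), 2 (4.52) or 3 (4.77), and DESeq2 gave no adjusted p for Rsad2 or Ifi44.

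Oas1a (ENSMUSG00000052776, chr5:120896256-120907521) encodes an oligoadenylate synthetase, which is switched on by double-stranded RNA. It was the one effector whose groups overlapped. It had 1.19, 0.217 and 0.568 CPM in WT, from 12, 2 and 5 counts, against 0.723, 12.7 and 1.46 CPM in UTX TCD cells. UTX TCD replicate 1 lay below WT replicate 1. The log2 fold change of 2.87 ± 1.13 did not pass (edgeR adjusted p = 0.051) and was 0.71 without UTX TCD replicate 2. It passed with DESeq2 (2.96), with gap-centred scaling (2.80) and without UTX TCD replicate 1 (3.39) or 3 (3.31). Its transcript is 97.6% identical to that of Oas1g over 1861 bases, so that its counts are uncertain.

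Isg20 (ENSMUSG00000039236, chr7:78913424-78920396) encodes an exonuclease that degrades single-stranded RNA. It went the other way. It had 38.1, 41.1 and 33.5 CPM in WT against 8.19, 30.3 and 11.9 CPM in UTX TCD cells. All UTX TCD libraries were below all WT libraries, but replicate 2 was at 0.807 times the WT mean, while replicates 1 and 3 were at 0.218 and 0.317 times the WT mean. The log2 fold change was -1.16 ± 0.43 (edgeR adjusted p = 0.044), and -1.91 without UTX TCD replicate 2. The call was lost with RLE scaling (-1.10) or upper-quartile scaling (-1.06), and without any other library: WT replicate 1 (-1.15), 2 (-1.09) or 3 (-1.24), or UTX TCD replicate 1 (-0.82) or 3 (-0.96).

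Rtp4, Ifi44, Ifi27l2a and Slfn1 complete the list. Rtp4 (ENSMUSG00000033355, chr16:23520291-23614222) encodes a receptor transporter protein that is induced by interferon. It had 0.693, 0.325 and 1.25 CPM in WT, from 7, 3 and 11 counts, against 1.93, 28.4 and 6.46 CPM in UTX TCD cells. The groups did not overlap, and replicate 3 was 3.35 times replicate 1. Rtp4 rose by 4.01 ± 1.03 on the log2 scale (edgeR adjusted p = 0.015), and by 2.47 without UTX TCD replicate 2. Its call was lost without WT replicate 1 (3.95) or 2 (3.65). In the annotation, Rtp4 shares 296 exonic bases with Gm45338, a transcript on the same strand.

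Ifi44 (ENSMUSG00000028037, chr3:151730922-151749960) is an interferon-induced gene whose product is less well understood. It had 0.991, 0.542 and 0.795 CPM in WT, from 10, 5 and 7 counts, against 1.69, 54.3 and 3.54 CPM in UTX TCD cells. It had the widest range among UTX TCD libraries, 32.1-fold, and replicate 2 held 91.5% of the group's counts. No WT library reached the filter level, and the gene was tested only because of its UTX TCD counts. The log2 fold change of 4.65 ± 1.36 (edgeR adjusted p = 0.022) became 1.73 without UTX TCD replicate 2. The call was lost without WT replicate 1 (4.87), 2 (4.45) or 3 (4.66).

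Ifi27l2a (ENSMUSG00000079017, chr12:103442167-103443680) encodes a small membrane protein. It had 116, 102 and 107 CPM in WT against 204, 832 and 232 CPM in UTX TCD cells, without overlap. UTX TCD replicates 1 and 3 were at 1.88 and 2.14 times the WT mean and replicate 2 at 7.68 times. Ifi27l2a rose by 1.97 ± 0.51 on the log2 scale (edgeR adjusted p = 0.016), and by 1.01 without UTX TCD replicate 2. The call was lost without WT replicate 2 (1.92). Its transcript shares 236 bases with that of Ifi27l2b at 90.7% identity.

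Slfn1 (ENSMUSG00000078763, chr11:83116849-83122670) belongs to the Schlafen family, named for its effect on T cell growth. It had 117, 88.8 and 119 CPM in WT against 250, 677 and 300.1 CPM in UTX TCD cells. The lowest UTX TCD library was above the highest WT library by more than the spread within WT. Slfn1 rose by 1.92 ± 0.36 (edgeR adjusted p = 0.0057), and by 1.34 without UTX TCD replicate 2.

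**Figure D3:**
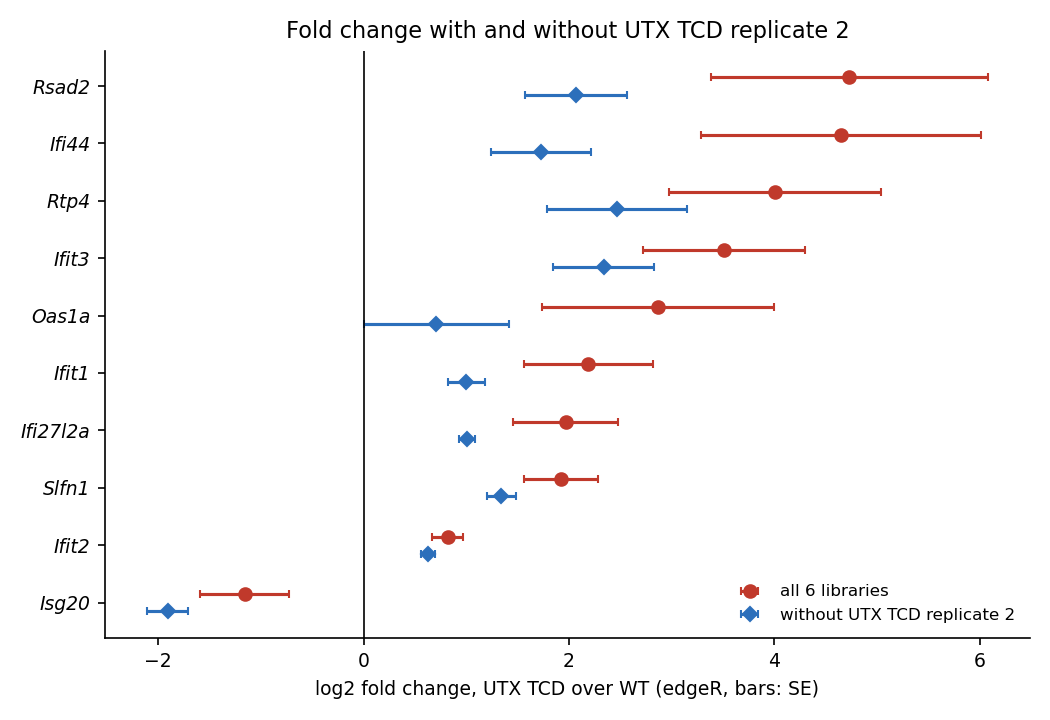
Log2 fold change of each effector (x axis, UTX TCD over WT) in the fit of all 6 libraries (red) and in the fit without UTX TCD replicate 2 (blue), with bars for the standard error. Leaving the library out brings Rsad2 from 4.73 to 2.07 and Ifi44 from 4.65 to 1.73, moves Ifit2 little, and takes Isg20 further below 0.

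The effectors ranked the UTX TCD libraries alike. Replicate 2 was the highest of the 3 for all 10 genes, Isg20 included, a count for which no share over all tested genes was taken. It was the highest of all 6 libraries for 9 effectors. Being highest of the 6 held for 32.8% of all tested genes and for 71.3% of those called higher. The order replicate 2, 3, 1 held for 9 effectors, for 23.9% of all tested genes and for 46.2% of those called higher, and Ifit1 had the order 2, 1, 3. The ratio of replicate 2 to the mean of replicates 1 and 3 was 20.8 for Ifi44, 16.9 for Rsad2 and 11.6 for Oas1a, ranks 2, 3 and 4 among 4118 genes. These 3 genes met the low-count filter only with UTX TCD libraries. In replicates 1 and 3 they had 6 to 34 counts. The ratio was 6.77 for Rtp4 (rank 12), 4.81 for Ifit1 (rank 24) and 4.73 for Ifit3 (rank 26). It was 3.82 for Ifi27l2a (rank 33), 3.02 for Isg20 (rank 56), 2.46 for Slfn1 (rank 99) and 1.41 for Ifit2 (rank 646). The median gene of the table had a ratio of 0.994.

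Levels can be compared between genes per length, as CPM per kilobase of annotated exon. In WT cells the highest level was that of Ifi27l2a at 234 ± 15.3, followed by Slfn1 at 58.1 ± 9.06 (SD, n = 3). Ifit2 at 21.1 ± 0.982 and Isg20 at 20.2 ± 2.06 overlapped, so that their order is not resolved. Ifit1 stood at 3.34 ± 0.33. Its range lay above that of Ifit3 (0.604). From Ifit3 down, through Rtp4 (0.355), Oas1a (0.349) and Ifi44 (0.127) to Rsad2 (0.0734), each gene's range overlapped with that of the next lower one. The 5 genes lowest in WT, all under 1 CPM per kilobase, were Ifit3, Rtp4, Oas1a, Ifi44 and Rsad2. In UTX TCD replicate 2 these stood between 5.44 for Rsad2 and 14.7 for Ifit3. In that library Isg20, at 16.3, was close to Ifit3, whereas in WT libraries Isg20 ran from 18.0 to 22.1 and Ifit3 from 0.373 to 0.854.

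Genes upstream of the effectors and other genes of the response were described from lists drawn up with earlier results of these data known. Of 170 distinct genes in these lists, 80 were tested, 52 were higher and 9 lower in UTX TCD cells, where 41.1% of all tested genes were higher and 27.0% lower. Their median log2 fold change was 0.67, and 0.37 without UTX TCD replicate 2. Of 21 interferon ligand genes, Ifng was the one analysed here. It had 18.3, 13.9 and 21.3 CPM in WT against 6.03, 2.85 and 5.42 CPM in UTX TCD cells, so that the library highest in the effectors was the lowest in Ifng. Ifng fell by 1.91 ± 0.33 on the log2 scale (edgeR adjusted p = 0.0043).

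Among receptor chains, 2 of 4 were called higher and none lower, a count near the 41.1% of all tested genes called higher. Ifnar2 rose by 0.46 ± 0.12 and Ifngr2 by 0.71 ± 0.26 (edgeR adjusted p = 0.017 and 0.043), while Ifnar1 at 0.44 ± 0.18 and Ifngr1 at 0.45 ± 0.18 did not pass. Ifnar1 had 229, 220 and 228 CPM in WT against 256, 409 and 254 CPM in UTX TCD cells. Ifngr2, whose groups overlapped, passed with no library left out other than UTX TCD replicate 3, and failed with gap-centred scaling (0.63). Without the others it ranged from 0.37 without UTX TCD replicate 2 to 0.86 without WT replicate 1. The call of Ifnar2 was lost without WT replicate 1 (0.44) or 2 (0.41). The count of receptor chains called higher was 0 without WT replicate 1 or 2, 1 without WT replicate 3 or with gap-centred scaling, 3 with RLE scaling and 4 with upper-quartile scaling or DESeq2.

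Of 9 receptor kinases and transcription factors, 7 rose and Irf8 fell, where 41.1% of all tested genes rose and 27.0% fell. Irf9 rose by 0.71 ± 0.18 (edgeR adjusted p = 0.015). Stat2 had 121, 97.0 and 127 CPM in WT against 180, 649 and 174 CPM in UTX TCD cells, a rise of 1.54 ± 0.49 on the log2 scale (edgeR adjusted p = 0.028), or 0.62 without UTX TCD replicate 2. Irf7, the factor that amplifies type I interferon production and is itself induced by interferon, had the largest log2 fold change of the 9 at 3.36 ± 0.91 (edgeR adjusted p = 0.017), or 1.46 without UTX TCD replicate 2. The call of Stat2 was lost without WT replicate 1 (1.57), 2 (1.43) or 3 (1.61), that of Irf7 without WT replicate 1 (3.39) or 2 (3.24), and that of Irf9 without WT replicate 2 (0.63). Irf2, which can oppose activation at the same elements, rose by 0.75 ± 0.11, and Irf8 fell by 1.28 ± 0.22. Without WT replicates 1, 2 and 3 the higher members of this list were 3, 2 and 4. In the same fits 19.6%, 17.6% and 28.8% of all tested genes were higher.

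Nucleic acid sensing genes went both ways, with 6 of 12 higher and 4 lower, near the shares of 41.1% and 27.0% over all tested genes. Tmem173, which encodes the DNA sensing adaptor STING, had 537, 492 and 503 CPM in WT against 229, 256 and 193 CPM in UTX TCD cells. It fell by 1.18 ± 0.12 on the log2 scale (edgeR adjusted p = 7.6e-04). Ifih1, the RNA sensor MDA5, fell by 0.82 ± 0.19 and Myd88, the Toll-like receptor adaptor, by 0.38 ± 0.10. Samhd1, which depletes nucleotides, rose by 0.97 ± 0.20. Calls of Tmem173, Ifih1 and Samhd1 held with any 1 library left out, and that of Myd88 was lost without WT replicate 1 (-0.38) or 2 (-0.40). Without WT replicate 1, 2 or 3 the higher members became 1, where 19.6%, 17.6% and 28.8% of all tested genes were higher. The lower ones became 2 without WT replicate 1 or 2, where 9.69% and 8.47% of all tested genes were lower.

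Of 46 other antiviral interferon-induced genes tested, 37 rose and Ifih1 fell, where 41.1% of all tested genes rose and 27.0% fell. The median log2 fold change of the 46 was 0.93, against 0.52 without UTX TCD replicate 2. That of all tested genes was -0.15 in the fit of all 6 libraries. This list shares genes with the lists of transcription factors and of sensing genes, among them Stat2, Irf7 and Irf9. The highest of the 6 libraries was UTX TCD replicate 2 for 41 of the 46. It was so for 32.8% of all tested genes and for 71.3% of those called higher. Trim14, an adaptor of antiviral signalling, rose by 1.58 ± 0.31, Ly6e, a surface protein that restricts viral entry, by 0.88 ± 0.18, and Dtx3l, a ubiquitin ligase, by 0.82 ± 0.17 (edgeR adjusted p = 0.0068, 0.0069 and 0.0075). Without WT replicate 1, 2 and 3, when 49 genes of the list were tested, 12, 9 and 16 were higher, near the 19.6%, 17.6% and 28.8% of all tested genes in the same fits. Oas2 and Oasl1, relatives of Oas1a, were below the low-count filter, with 1 to 5 counts in every WT library. In UTX TCD replicates 1, 2 and 3 Oas2 had 6, 122 and 11 counts, and Oasl1 had 6, 119 and 18. Oas1b and Oas1c, relatives that were tested, rose by 1.35 ± 0.37 and 1.06 ± 0.31, or 0.77 and 0.71 without UTX TCD replicate 2. Among negative regulators 2 of 4 rose and Ptpn11 fell, where 41.1% and 27.0% of all tested genes did. Socs3, a feedback inhibitor of cytokine receptors, was one of those higher, at 0.96 ± 0.26, and its call was lost without WT replicate 1 (0.98) or 2 (0.81). That of Ptpn11, at -0.35 ± 0.12, was lost without any 1 WT library (-0.36 to -0.34). No negative regulator passed without WT replicate 1 or 2.

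**Figure D4:**
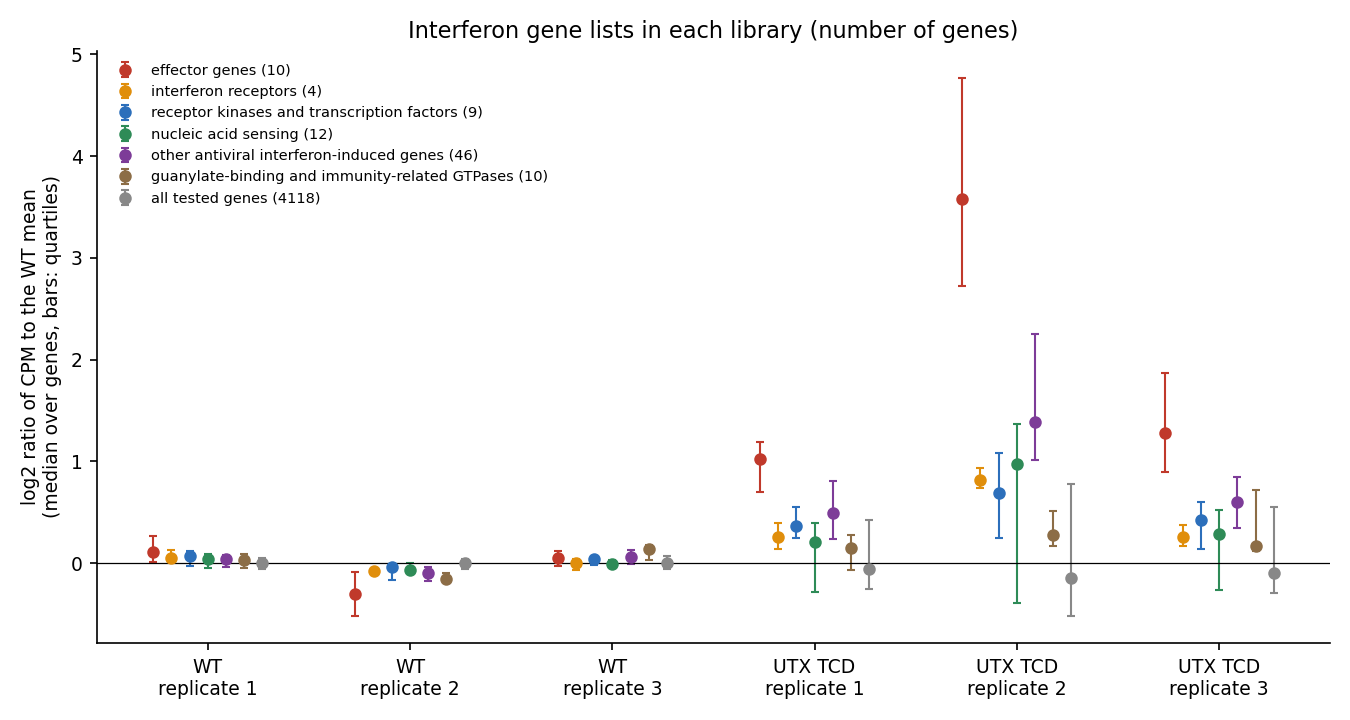
Log2 ratio of CPM to the WT mean in each library (y axis), as the median over the genes of a list with bars for the quartiles, after adding 0.2 CPM to each value. In UTX TCD replicate 2 the median of the effectors is 3.58, of the other antiviral genes 1.39 and of the GTPases 0.28, and in UTX TCD replicates 1 and 3 the effectors are at 1.02 and 1.28. The effector medians include 5 genes that met the low-count filter only with UTX TCD libraries.

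In bulk RNA, a change in the share of cells of one type and a change of RNA per cell cannot be told apart. Of 12 T cell markers, 3 were analysed here. Lck had 1490 to 1530 CPM in WT and 1350 to 1420 CPM in UTX TCD libraries. Cd2 rose by 1.10 ± 0.23 and was highest in UTX TCD replicate 2 at 1670 CPM, against 492 to 611 CPM in WT. Lat fell by 0.44 ± 0.08. Of 4 CD8 T cell markers, 2 were tested. Cd8b1 had 11.6, 14.5 and 12.8 CPM in WT against 31.5, 56.2 and 40.8 CPM in UTX TCD cells. It rose by 1.72 ± 0.24 on the log2 scale (edgeR adjusted p = 0.0023), and by 1.47 without UTX TCD replicate 2. Eomes was not called. The order of the UTX TCD libraries for Cd8b1 was replicate 2, 3, 1. This order held for 9 of the effectors, for 23.9% of all tested genes and for 46.2% of those called higher. The 10 B cell markers were represented by Fcer2a, at 20.8 to 21.5 CPM in WT and 7.29 to 16.1 CPM in UTX TCD libraries. The 9 NK cell markers were represented by Eomes and Prf1, neither of which was called, with summed levels of 27.5 to 66.1 CPM in WT and 32.7 to 58.4 CPM in UTX TCD libraries. Most of this sum was Eomes, whose groups overlapped. Prf1 had 5.21 to 8.51 CPM in WT and 9.30 to 10.3 CPM in UTX TCD libraries, without overlap. Its log2 fold change of 0.60 ± 0.26 did not pass (edgeR adjusted p = 0.067). Markers of macrophages, dendritic cells, neutrophils, erythroid cells and platelets were also listed. None was among the tested genes, so that their levels cannot be given here. The part of other cell types in the results was not tested.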

How the data were processed

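RNA-seq of 6 libraries was used, 3 per genotype, grouped by title. The authors deposited raw counts of reads per gene. Per the submitters' processing notes, the tools were HISAT2, HTSeq and FastQC, on the build mm10. The sources used here give no versions, annotation, strand setting or rule by which the 4162 listed genes were selected. Column totals are therefore not library depths, and the adjusted p-values, taken over the selected genes alone, are too small.

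Genes were tested with edgeR 4.0.16 in R 4.3.3 (quasi-likelihood F test, TMM, genotype only, low-count filter with minimum count 10 and minimum total 15, Benjamini-Hochberg adjustment over 4118 tested genes, threshold 0.05). The standard error is |log2 fold change| over the root of F. The fit was checked on data simulated with the same variation between libraries in both groups, so the wider spread of UTX TCD libraries was not covered. Alternatives were RLE, upper-quartile and gap-centred scaling, no filter, DESeq2 1.42.0, a replicate block, adjustment over all 22028 annotated protein-coding genes, and leaving out each library. Loci, exon lengths and transcript identity (blastn) came from GENCODE M21 (GRCm38), the same assembly as mm10. The 10 effectors and all gene lists were chosen with earlier results of these data known. Named beside the effectors were up to 4 genes per pathway list with the smallest p, receptor chains, Stat2, Irf7 and Irf9, the marker genes analysed here, and the 10 genes of average log2 CPM of at least 2 most correlated with the effectors' mean. Oas1b, Oas1c, Oas2, Oasl1, Ifit3b and Gbp2 were named after their values were seen. A gene that the rule also names is not reported here. Library-level spread includes that between mice.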

Additional observations from a re-analysis of the deposited data

How the results depend on the processing

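Over 13 alternatives the 10 effectors gave 128 fold changes with a test: 98 kept the call of the report, 26 lost it, 4 gained one and 0 reversed. When p-values were adjusted for all 22028 annotated protein-coding genes, 2 effectors, Ifit2 and Slfn1, were called higher and 0 lower, and 625 genes of the table were higher and 296 lower. No effector was called lower with RLE scaling (0) or upper-quartile scaling (0), which gave 725 lower genes in the table, and gap-centred scaling gave 1832. Leaving out 1 library gave 3 to 9 effectors higher and 0 to 1 lower, and over all tested genes 730 higher at the fewest and 1824 at the most, and 351 to 1458 lower. Replicate numbers are shared between the genotypes. Deviations of same-numbered libraries from their group means had correlations of 0.28, -0.28 and 0.18 for numbers 1, 2 and 3. With 3 libraries per group these values cannot decide whether the numbers pair the libraries. With a replicate block 8 effectors were higher and 1 lower, and 1607 and 1026 genes of the table. The cause of these shifts was not tested. Depth limits the 5 effectors lowest in WT, which rest on 9 to 30 counts over the WT libraries together.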

Other observations

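Among 10 tested guanylate-binding and immunity-related GTPases, which attack the vacuoles of intracellular pathogens and are induced mainly by interferon gamma, 3 rose and Tgtp1 fell, where 41.1% of all tested genes rose and 27.0% fell. Their median log2 fold change was 0.27, and the median ratio of UTX TCD replicate 2 to the mean of replicates 1 and 3 was 1.06, where the median over the 10 antiviral effectors was 4.77. The effector median includes the 5 genes that met the low-count filter only with UTX TCD libraries. Gbp2, the GTPase with the most counts, had 3500, 3400 and 3950 CPM in WT against 4170, 4090 and 4090 CPM in UTX TCD cells, and its difference did not pass (0.18 ± 0.09, edgeR adjusted p = 0.084). Gbp9 rose by 1.16 ± 0.26 and Gbp8 by 0.75 ± 0.14, and both calls held with any 1 library left out. Ifi47 was higher at 0.28 ± 0.09, a call lost with gap-centred scaling (0.20) and without WT replicate 1 (0.31), 2 (0.24) or 3 (0.27) or UTX TCD replicate 3 (0.23). The call of Tgtp1 (-0.32 ± 0.11) was lost without any 1 library except UTX TCD replicate 2. With upper-quartile scaling or DESeq2 6 of the 10 were higher and 0 lower, without UTX TCD replicate 1 they were 5 and 0, and with gap-centred scaling 2 and 2.

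Of the Schlafen genes other than Slfn1, Slfn2 and Slfn3 were tested, and their difference from Slfn1 was not tested. Slfn2 had 1600, 1550 and 1450 CPM in WT against 1310, 1160 and 1220 CPM in UTX TCD cells and fell by 0.32 ± 0.09 (edgeR adjusted p = 0.017). Slfn3 rose by 0.36 ± 0.10 (edgeR adjusted p = 0.018). Both calls were lost without WT replicate 1 or 2.

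The genes whose log2 CPM over the 6 libraries was most correlated with the mean of the effectors were Arid5a, Rnf114, Acss2, Cmpk2, Dhx58, Itm2b, Crat, Fggy, Gys1 and Itih5, with Pearson's r of 0.993 to 0.998. This is a description over 6 libraries that differ in genotype, and 13.4% of all 4118 tested genes, below and above the level asked of these 10, reached an r of 0.9. Cmpk2 and Dhx58 are known interferon-induced genes. Acss2, which makes acetyl-CoA from acetate, had 28.4, 25.8 and 27.6 CPM in WT against 40.2, 145 and 54.0 CPM in UTX TCD cells. Gys1, the glycogen synthase of most tissues, had 53.2, 48.5 and 53.1 CPM in WT against 61.8, 108 and 74.0 CPM in UTX TCD cells. Among the effectors, r with their own mean ran from 0.934 for Ifit2 to 0.998 for Ifi44, and was -0.16 for Isg20. Each effector is itself part of that mean, which raises its r, so that these values are a description.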
